A study of Mus musculus with 4 samples.

Results

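The adipocyte genes are 10 genes commonly used as markers of fat cells: Fabp4, Lpl, Retn, Adipoq, Cfd, Plin1, Cidec, Pparg, Cebpa and Cd36. They were followed on all probe sets whose gene symbol in the platform annotation was one of these names. The rule found 14 probe sets for 8 of the 10 genes, out of 45037 probe sets that covered 18193 genes. Cfd and Plin1 had no probe set of that symbol in the annotation and were not analysed here. Fabp4 had 4 probe sets, Cd36 had 3, Lpl had 2 and each of Retn, Adipoq, Cidec, Pparg and Cebpa had 1.

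RNA of chondrocytes freed from the rib cartilage of mice at postnatal day 5 was hybridised to 4 Affymetrix arrays, 1 for each genotype. The double mutant carried the Matn3 V194D knock-in, which models the human skeletal dysplasia multiple epiphyseal dysplasia, together with a deletion of Xbp1 exon 2 by a Cre recombinase under the Col2a1 promoter. The Matn3 mutant carried the knock-in alone, the XBP1 null carried the deletion alone and the wild type carried neither. All 4 groups were on the C57BL6/J background, and each array held a pool of RNA from 3 extractions. Chondrocytes came from pooled litters, and whether the wild type carried floxed Xbp1 alleles or Cre is not stated. The Cre acts in cells that use the Col2a1 promoter, chiefly chondrocytes. Only cells that never used this promoter, and do not descend from cells that did, are expected to keep Xbp1. Which cells of the digest these are was not measured. With 1 array for each genotype there were no replicates, so no difference between 2 arrays below has an error or a test, and the 1.5-fold limit used for counting is a threshold of size only.

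White fat cells store triglyceride in a lipid droplet. Their formation is driven by the nuclear receptor PPARG, which binds DNA with RXR at repeats of AGGTCA, and by C/EBP transcription factors. Lipoprotein lipase frees fatty acids from circulating lipoproteins, CD36 carries them across the membrane and FABP4 binds them in the cytosol, while adiponectin and resistin are hormones that mouse fat cells secrete. Several of these genes are also active outside fat: Fabp4 and Cd36 in capillary endothelium and macrophages, and Lpl in muscle and macrophages. Chondrocytes and fat cells come from mesenchymal progenitors, and bone marrow is a usual site of fat cells in the skeleton.

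Promoters of 6 of the 8 measured genes, at 9 start sites, were read from RefSeq (GRCm38.p6), each with 250 bases before the start and 50 after it. Those of 3 genes are shown, 5′ to 3′, for the gene with the widest span of signals (Cd36), for the main regulator of the set (Pparg, at the start farthest downstream) and for a hormone made almost only by fat cells (Adipoq). Capitals mark AGGTCA, TTGCNNAA (a short C/EBP site) and CCAAT on either strand.
Cd36: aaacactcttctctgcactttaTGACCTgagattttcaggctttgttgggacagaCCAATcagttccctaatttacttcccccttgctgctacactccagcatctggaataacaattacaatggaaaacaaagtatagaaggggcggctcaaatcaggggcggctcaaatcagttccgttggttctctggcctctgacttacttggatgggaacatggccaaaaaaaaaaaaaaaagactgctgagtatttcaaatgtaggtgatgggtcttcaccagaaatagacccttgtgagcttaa
Pparg: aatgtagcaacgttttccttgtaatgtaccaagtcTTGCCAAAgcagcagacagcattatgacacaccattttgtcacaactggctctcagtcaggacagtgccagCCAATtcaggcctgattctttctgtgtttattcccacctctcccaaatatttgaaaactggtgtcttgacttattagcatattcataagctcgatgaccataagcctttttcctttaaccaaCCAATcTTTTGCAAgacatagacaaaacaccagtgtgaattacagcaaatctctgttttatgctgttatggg
Adipoq: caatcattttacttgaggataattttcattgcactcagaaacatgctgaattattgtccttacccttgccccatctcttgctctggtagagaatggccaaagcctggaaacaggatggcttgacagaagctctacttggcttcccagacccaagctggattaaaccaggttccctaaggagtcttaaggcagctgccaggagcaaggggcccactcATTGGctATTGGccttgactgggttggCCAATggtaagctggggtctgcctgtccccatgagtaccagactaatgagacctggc
The Cd36 window was chr5:17835847-17836146 on the minus strand, at a start inside the annotated gene. It held 1 AGGTCA on the reverse strand, 228 bases before the start, and 1 CCAAT. The Pparg window was chr6:115421816-115422115 on the plus strand, and it held 2 copies of TTGCNNAA and 2 of CCAAT. The Adipoq window, chr16:23146286-23146585 on the plus strand, held 3 copies of CCAAT.

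Over all 9 windows, AGGTCA lay in 3, at Cd36 and at the other 2 Pparg starts, and in 16.3% of 32851 RefSeq promoter windows of the same length. TTGCNNAA lay in 2 of the 9 and in 10.8% of all. CCAAT lay in 4 of the 9 and in 37.4% of all. Repeats of AGGTCA with 1 base between them lay in 0 of the 9 and in 0.0396% of all, and TATAAA in 2 of the 9 and in 13.6% of all. All motifs were searched on both strands, and no pair of marked motifs overlapped in the 3 windows shown. These are matches of letters and not binding sites.

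The arrays were alike in scale, with a median signal of 43.8 on each and correlations between pairs of arrays, across probe sets, from 0.956 to 0.974. Xbp1 gave 9548 in the double mutant, 11403 in the Matn3 mutant, 7877 in the XBP1 null and 8183 in the wild type, on a probe set whose place relative to the deleted exon is not known here, so that this probe set does not check the labels. Cartilage genes were strong on every array, with Col2a1 between 10187 and 13571. The Y-linked gene Eif2s3y gave 855 in the double mutant, 0.0320 in the Matn3 mutant, 665 in the XBP1 null and 484 in the wild type. Uty, also Y-linked, gave 356, 0.904, 233 and 135 in that order, and Kdm5d, another, gave 237, 1.65, 212 and 151. All were below the 25th percentile on the Matn3 mutant array alone. The sex of the pooled mice is not stated. A part of sex in the comparisons with the Matn3 mutant array cannot be told apart from genotype.

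The listed genes that only fat cells are expected to express strongly were dim. Adipoq gave 9.08 in the double mutant, 7.51 in the Matn3 mutant, 28.1 in the XBP1 null and 6.62 in the wild type. Retn gave 19.0, 11.2, 5.29 and 2.27 in the same order of genotypes. Cidec gave 0.966, 1.48, 0.770 and 1.35 in that order. All 12 of these signals were below the median of their array, the 4 Cidec signals were also below the 25th percentile of theirs, and so were 2 of the 4 Retn signals. Lep, the gene of the fat cell hormone leptin, and Ucp1, the uncoupling protein of brown fat, were each under 1 on all 4 arrays. Not all fat cell genes outside the list were dim. Cidea, a droplet protein of brown fat, gave 776, 357, 533 and 451 in the same order of genotypes, above the median of each array. Plin4, another lipid droplet gene, gave 51.0, 25.6, 16.5 and 3.28. Only its double mutant signal was above the median of its array, and its wild type signal was below the 25th percentile. The brighter members were Fabp4, Cd36, Lpl and Pparg, genes with uses outside fat cells, so the name adipocyte genes is kept here for the list and is not used as a name for cells in the preparation.

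**Figure D1:**
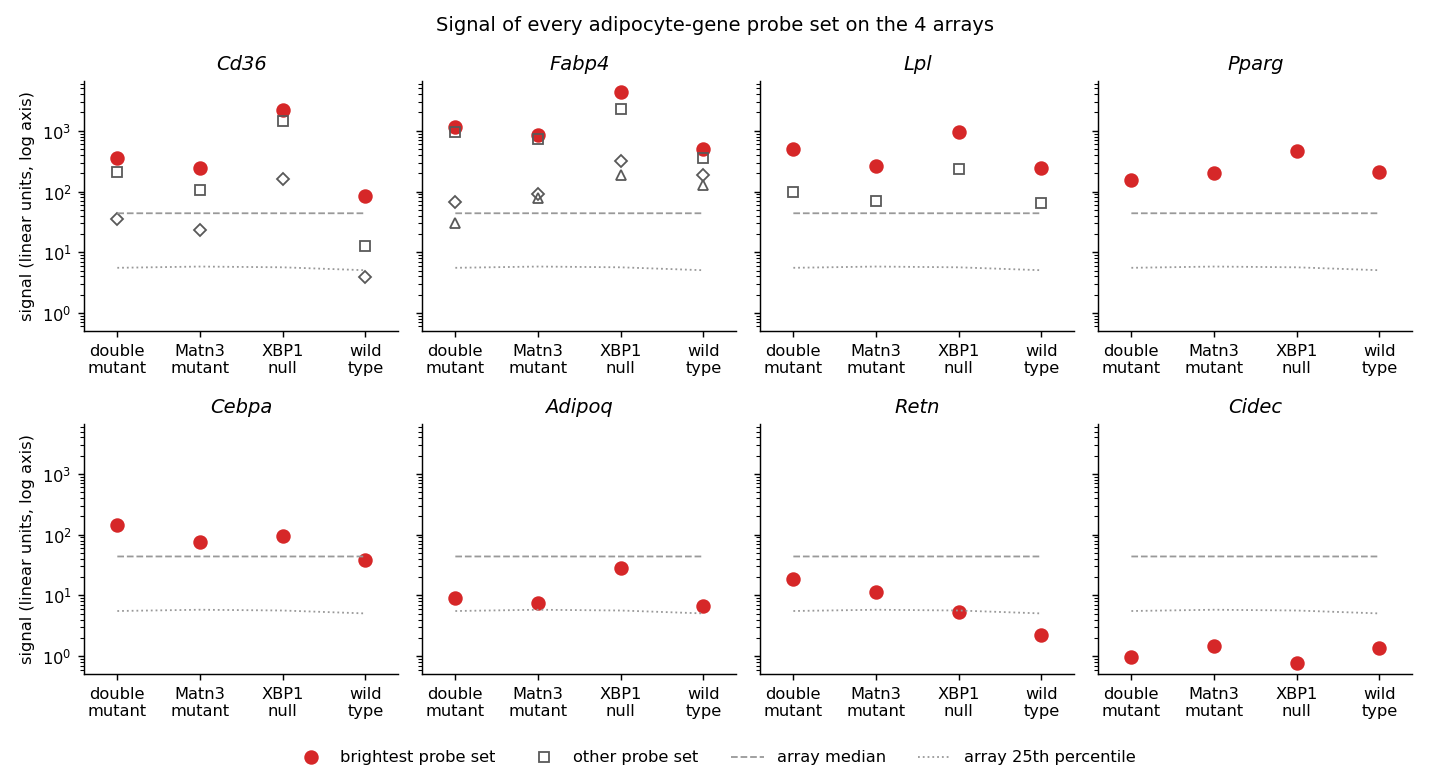
Signal (linear units on a log axis) of each probe set of the 8 measured genes on the 4 arrays, 1 array for each genotype. Red points are the brightest probe set of a gene, open points its other probe sets, and the grey lines join each array's median (dashed) and 25th percentile (dotted). Cd36, Fabp4, Lpl, Pparg and Adipoq were highest in the XBP1 null, Cebpa and Retn in the double mutant, and Cidec lay below the 25th percentile on every array.

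CD36, the fatty acid transporter (chr5:17781690-17888959), had the widest span of signals of the listed genes. Its brightest probe set, 1450883_a_at, gave 361 in the double mutant, 242 in the Matn3 mutant, 2234 in the XBP1 null and 83.0 in the wild type. The XBP1 null array was thus far above the other 3, and the wild type was lowest. The XBP1 null signal was 26.9-fold that of the wild type, a log2 difference of 4.75 that ranked 62 of 18193 genes from the highest. In the Matn3 mutant the signal was 2.91-fold that of the wild type, and in the double mutant it was 6.19-fold below the XBP1 null and 1.49-fold above the Matn3 mutant. Both other probe sets had the same order of genotypes. Probe set 1423166_at gave 210 in the double mutant, 106 in the Matn3 mutant, 1474 in the XBP1 null and 12.7 in the wild type, and its XBP1 null signal was 116-fold the wild type. Probe set 1450884_at gave 35.5, 23.3, 161 and 3.91 in that order, with the wild type below the 25th percentile of its array.

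FABP4, the fatty acid binding protein of fat cells (chr3:10204342-10208616), was next. Probe set 1417023_a_at gave 1154 in the double mutant, 858 in the Matn3 mutant, 4285 in the XBP1 null and 493 in the wild type. The order of the genotypes was the same as for Cd36. The XBP1 null was 8.68-fold above the wild type (log2 difference 3.12, rank 243 of 18193), the Matn3 mutant 1.74-fold above the wild type, the double mutant 1.35-fold above the Matn3 mutant and 3.71-fold below the XBP1 null.

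The 4 Fabp4 probe sets did not share 1 pattern. Probe set 1451263_a_at gave 948 in the double mutant, 720 in the Matn3 mutant, 2317 in the XBP1 null and 358 in the wild type, in the order just described. Probe set 1424155_at gave 66.5, 91.4, 320 and 185 in that order of genotypes, and 1425809_at gave 30.5, 77.9, 188 and 129. On these dimmer probe sets the double mutant was lowest and the Matn3 mutant lay 2.03-fold and 1.65-fold below the wild type, opposite in direction to the brighter pair. All 4 had their highest signal in the XBP1 null. The XBP1 null was 1.73-fold above the wild type on 1424155_at and 1.46-fold on 1425809_at.

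LPL, lipoprotein lipase (chr8:68880555-68906932), gave 511 in the double mutant, 267 in the Matn3 mutant, 967 in the XBP1 null and 245 in the wild type on probe set 1415904_at. The Matn3 mutant and the wild type were close, at 1.09-fold. The XBP1 null was 3.94-fold above the wild type, and the double mutant 1.91-fold above the Matn3 mutant and 1.89-fold below the XBP1 null. Its second probe set, 1431056_a_at, gave 99.1, 69.1, 237 and 65.3 in the same order of genotypes. The XBP1 null was 3.64-fold above the wild type there, and the double mutant 1.43-fold above the Matn3 mutant, under the 1.5-fold limit.

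PPARG, the nuclear receptor that drives fat cell formation (chr6:115360879-115490404), had signals of 152 in the double mutant, 203 in the Matn3 mutant, 469 in the XBP1 null and 209 in the wild type. Again the XBP1 null was highest, but here the double mutant was lowest. The XBP1 null was 2.24-fold above the wild type, while the Matn3 mutant differed from the wild type by a log2 of -0.04. The double mutant was 1.34-fold below the Matn3 mutant and 3.09-fold below the XBP1 null. CEBPA, a C/EBP factor that acts with PPARG in fat cells (chr7:35119293-35121928), had another order. It gave 142 in the double mutant, 77.0 in the Matn3 mutant, 94.0 in the XBP1 null and 38.8 in the wild type. Cebpa was over 1.5-fold higher in all 4 comparisons, by 1.98-fold in the Matn3 mutant and 2.42-fold in the XBP1 null against the wild type, and by 1.85-fold and 1.52-fold in the double mutant against the Matn3 mutant and against the XBP1 null.

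Among the secreted hormones, Adipoq (adiponectin, chr16:23146536-23157968) was 4.25-fold higher in the XBP1 null than in the wild type, and 3.10-fold lower in the double mutant than in the XBP1 null. Its other differences were small, at 1.13-fold for the Matn3 mutant against the wild type and 1.21-fold for the double mutant against the Matn3 mutant. Retn (resistin, chr8:3655770-3659818) was 4.93-fold higher in the Matn3 mutant than in the wild type and 2.33-fold higher in the XBP1 null than in the wild type. In the double mutant Retn was 1.70-fold above the Matn3 mutant and 3.59-fold above the XBP1 null. Its XBP1 null and wild type signals were both below the 25th percentile of their arrays, and with signals raised to the 25th percentile of all signals the 2.33-fold difference disappeared (log2 0.00) and that of the Matn3 mutant was 1.02 on the log2 scale. Cidec, a protein of the lipid droplet surface (chr6:113424634-113435760), was too dim for a fold to be read.

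The counts over the list followed from these values, on the brightest probe set of each gene. In the XBP1 null, 7 of the 8 measured genes were over 1.5-fold higher than in the wild type and 0 were lower, beside 23.3% of all genes higher and 11.5% lower. The median log2 difference was 1.63 for the 8 genes and 0.09 for all genes. In the Matn3 mutant, 4 of 8 (Fabp4, Retn, Cebpa and Cd36) were higher than in the wild type and 0 were lower, beside 21.2% of all genes higher and 19.3% lower. The median there was 0.49 for the 8 genes and 0 for all.

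Against the Matn3 mutant, the double mutant had 3 of 8 genes higher (Lpl, Retn and Cebpa) and 0 lower, beside 17.4% of all genes higher and 9.03% lower. The median was 0.50 for the 8 genes and 0.15 for all genes. Against the XBP1 null, the double mutant had 2 of 8 higher (Retn and Cebpa) and 5 lower (Fabp4, Lpl, Adipoq, Pparg and Cd36), beside 16.6% of all genes higher and 16.9% lower, with medians of -1.27 and 0. These comparisons share arrays: a high XBP1 null signal enters both the XBP1 null against wild type and, with the other sign, the double mutant against XBP1 null.

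**Figure D2:**
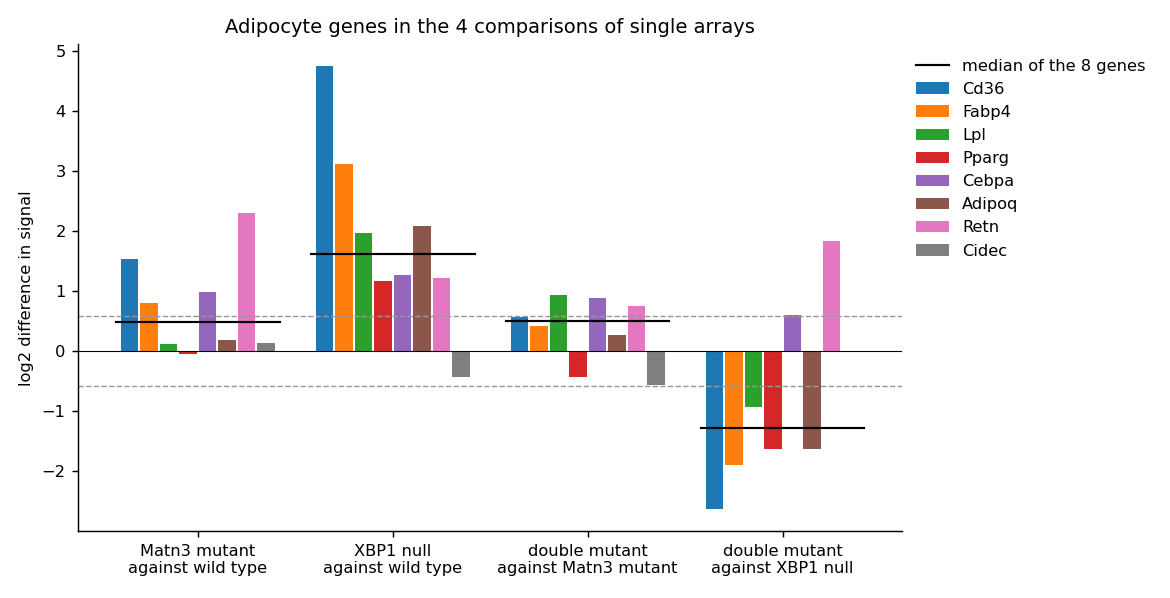
Log2 difference in signal (vertical axis) of the 8 measured genes, brightest probe set each, in the 4 comparisons of single arrays. Bars are genes, black lines the median of the 8 (0.49, 1.63, 0.50 and -1.27 from left to right) and dashed lines 1.5-fold. No bar has an error, since each array stands alone.

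A fit over all 4 arrays with an additive effect of each genotype factor (limma, 1 residual degree of freedom) called 0 of the 8 genes for either effect. It called 0 of 45037 probe sets (0%) for the Matn3 mutation and 0 (0%) for the XBP1 loss at an adjusted p under 0.05, with 3381 and 2052 at an unadjusted p under 0.05. Of the 8 genes, 1 had an unadjusted p under 0.05 for the Matn3 mutation. This was Retn, with an effect of 2.07 ± 0.358 (log2, SE) and a limma adjusted p of 0.635. For the XBP1 loss there were 2, Cebpa at 1.08 ± 0.254 and Cidec at -0.50 ± 0.0588, each with a limma adjusted p of 0.819, and the Cidec value comes from signals near or at the floor of 1. Cd36 had the largest fitted effect of XBP1 loss among the 8 genes, 2.66, with a standard error of 1.46 and a limma adjusted p of 0.819. The additive fit assumes that the effects of both factors add, and the single differences of Cd36 departed from this by -4.17 on the log2 scale.

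The summed signal of endothelial markers had the order of genotypes of some adipocyte genes, but not of Pparg, which was lowest in the double mutant. Nor was it the order of Cebpa, which was highest there. Retn was highest there too, but its signals were below the median of every array and have no reliable order. The summed signal of the 11 endothelial genes was 925 in the double mutant, 613 in the Matn3 mutant, 4455 in the XBP1 null and 118 in the wild type. This is the order of genotypes of Cd36, of Lpl, of the brighter Fabp4 probe sets and of the dim Adipoq. Not every endothelial gene had it. Vwf gave 17.3 in the double mutant and 29.9 in the Matn3 mutant, and Cldn5 gave 103 and 111. In the XBP1 null all 11 were over 1.5-fold higher than in the wild type (median log2 difference 5.03). In the Matn3 mutant 8 were higher than in the wild type and 0 lower. In the double mutant all 11 were lower than in the XBP1 null (median -2.21). For these and the list counts below, the shares of all genes higher and lower were 23.3% and 11.5% in the XBP1 null against the wild type. They were 21.2% and 19.3% in the Matn3 mutant against the wild type. For the double mutant they were 17.4% and 9.03% against the Matn3 mutant, and 16.6% and 16.9% against the XBP1 null. Cdh5, the cadherin of endothelial junctions, gave 221 in the double mutant, 146 in the Matn3 mutant, 838 in the XBP1 null and 11.5 in the wild type. Pecam1 was under 1 on 3 arrays and gave 87.7 in the XBP1 null. The part of endothelial RNA in the values of the adipocyte genes was not tested, and in such bulk samples more cells of a type and more RNA for each cell cannot be told apart.

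Markers of other cell types also differed between the arrays. The 10 macrophage genes summed to 4932 in the double mutant and 5884 in the Matn3 mutant. In the XBP1 null the sum was 6965 and in the wild type 2540. Most of each sum is Cd14, at 4066, 5115, 6133 and 1961 in the same order of genotypes. Of the 10, 6 were higher in each single mutant than in the wild type, and 2, Lyz2 and Itgam, were lower in the Matn3 mutant. The 8 fibroblast and perichondrium genes summed to 75186, 58347, 82727 and 61993 in the same order of genotypes, and 5 of them were higher in the XBP1 null than in the wild type. Among these, Dpt, a matrix protein of fibroblasts, gave 276 in the double mutant, 124 in the Matn3 mutant, 871 in the XBP1 null and 55.3 in the wild type. This is again the order of genotypes of Cd36. The 9 chondrocyte genes summed to 109818, 105428, 100929 and 91447, with 0 of 9 past 1.5-fold in the XBP1 null. The 8 skeletal muscle genes summed to 2788, 1979, 2470 and 3090. Most of this sum is Tnnt3, at 1906 in the XBP1 null and 2780 in the wild type. Counted by gene, 6 of the 8 muscle genes were higher and 0 lower in the XBP1 null than in the wild type (median log2 difference 0.93). Of these 6, only Acta1 had a mean log2 not under the median of all probe sets. In the Matn3 mutant 1 of the 8 was higher and 5 were lower than in the wild type. The 8 neutrophil genes summed to 401, 354, 332 and 247, and the 5 measured erythroid genes to 38.0, 25.1, 215 and 142. Lcn2 was the largest part of each neutrophil sum, at 246, 207, 167 and 158. Alas2 was most of the erythroid sum in the XBP1 null, at 169, and in the wild type, at 83.1. The part of macrophage, fibroblast, muscle and blood cell RNA in the adipocyte gene values was not tested.

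**Figure D3:**
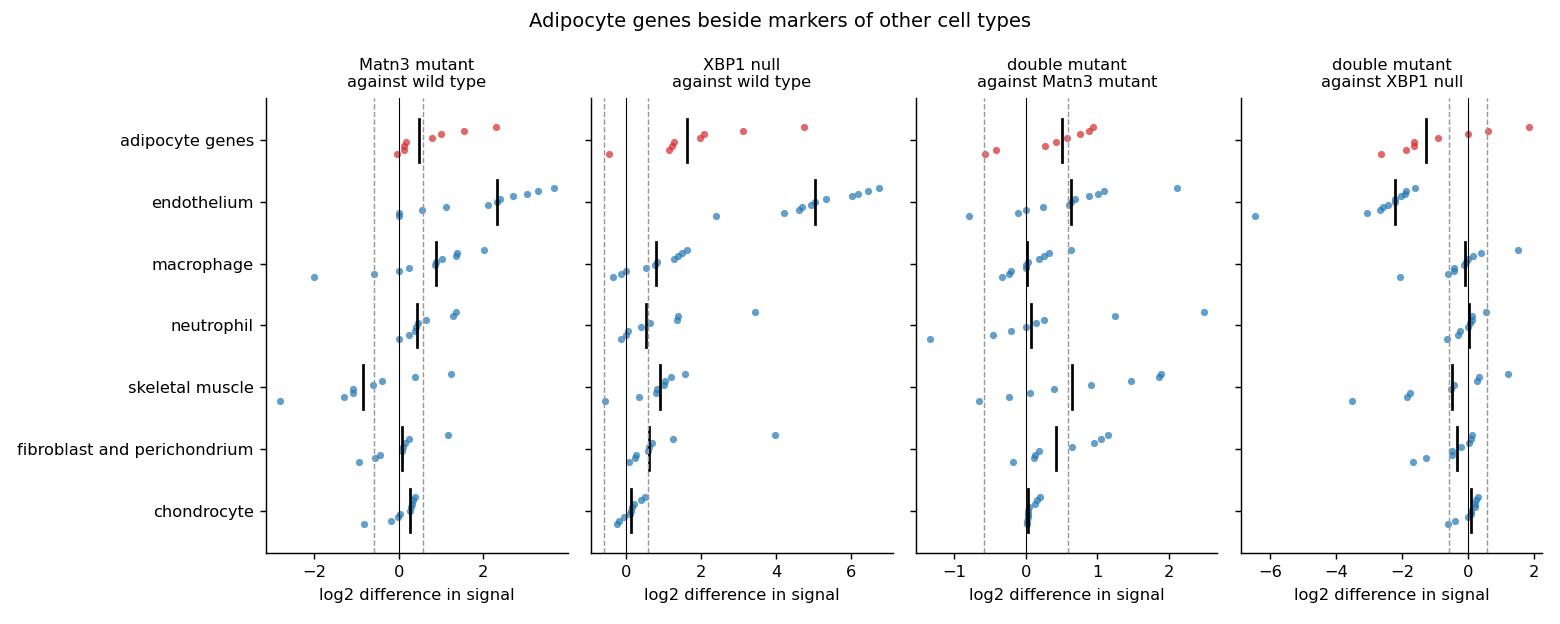
Log2 difference in signal (horizontal axis, own scale in each panel) of the adipocyte genes (red) and of marker genes of other cell types (blue), 1 point for each gene, in the 4 comparisons. Black bars are list medians and dashed lines 1.5-fold. In the XBP1 null against the wild type the median of the adipocyte genes was 1.63 and that of the endothelial genes 5.03.

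Other genes of lipid uptake included the neighbours of LPL on the capillary wall. In the uptake list, 12 of 13 genes were measured, and 4 were higher and 1 lower in the XBP1 null than in the wild type, with a median log2 difference of 0.38. Gpihbp1, the endothelial protein that anchors lipoprotein lipase in capillaries, gave 160 in the double mutant, 68.7 in the Matn3 mutant, 536 in the XBP1 null and 9.06 in the wild type. It was 59.2-fold higher in the XBP1 null than in the wild type. Angptl4, an inhibitor of lipoprotein lipase, gave 498, 382, 1533 and 455 in the same order of genotypes, and Cav1, the main protein of caveolae, gave 2417, 3876, 6763 and 2053. Vldlr, a lipoprotein receptor, gave 1668, 2240, 2267 and 954. In the Matn3 mutant 4 of the 12 were higher than in the wild type and 1 was lower, Fabp5, another fatty acid binding protein, by 1.64-fold.

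Genes of the lipid droplet and of lipolysis did not share the direction of the adipocyte genes in the single mutants. Of 13 measured, the XBP1 null had 2 above and 4 below the wild type, with a median log2 difference of -0.05. The Matn3 mutant had 2 above and 4 below the wild type as well, with a median of -0.45. Plin2, the droplet coat protein found in most cells, gave 2702 in the double mutant, 1327 in the Matn3 mutant, 1926 in the XBP1 null and 4082 in the wild type, so that the wild type was highest. Mgll, the monoglyceride lipase, gave 414, 258, 744 and 267 in that order, with the XBP1 null highest as for Lpl. In the double mutant 7 of 13 were higher than in the Matn3 mutant and 0 were lower, with a median of 0.65. Of these 7, only Plin2, Cidea and Mgll had a mean log2 not under the median of all probe sets. Of all genes, 17.4% were higher and 9.03% lower in that comparison. Plin2 was 2.04-fold and Cidea, a droplet protein of brown fat, 2.17-fold higher.

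Transcription factors of fat cell formation outside the list, 12 measured, had 2 genes higher and 2 lower in the XBP1 null than in the wild type and 1 higher and 3 lower in the Matn3 mutant than in the wild type. Cebpd, an early factor of the programme, gave 4760 in the double mutant, 2335 in the Matn3 mutant, 3137 in the XBP1 null and 5538 in the wild type. Like Plin2, it was highest in the wild type. Against the Matn3 mutant, 6 of 12 were higher in the double mutant and 0 lower, beside 17.4% and 9.03% of all genes. Among the 6 were Cebpd, by 2.04-fold, and Rxra, the partner of PPARG, by 1.76-fold. Also among them were Nr1h3, Klf15 and Ebf2, each with a mean log2 under the median of all probe sets.

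Of 8 measured PPARG target genes outside the list, 2 were higher and 1 lower in the XBP1 null than in the wild type, 0 higher and 4 lower in the Matn3 mutant than in the wild type, 3 higher and 0 lower in the double mutant than in the Matn3 mutant, and 0 higher and 6 lower in the double mutant than in the XBP1 null. Lower in this last comparison, but with a mean log2 under the median of all probe sets, were Aqp7, Pck1 and Lipe. Of the 8 genes, 6 also belong to another list here. Pdk4, a kinase that spares glucose, gave 251 in the double mutant, 163 in the Matn3 mutant, 402 in the XBP1 null and 415 in the wild type. It did not share the wild type minimum of Cd36 and of the brighter Fabp4 probe sets. Angptl4, also in this list, was 3.37-fold higher in the XBP1 null than in the wild type and 3.08-fold lower in the double mutant than in the XBP1 null.

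Synthesis genes moved little in the single mutants. Of 15 fatty acid and triglyceride synthesis genes, 2 were higher and 1 lower in the XBP1 null than in the wild type. In the Matn3 mutant 1 was higher and 2 lower than in the wild type. Of all genes, 23.3% were higher and 11.5% lower in the former comparison, and 21.2% and 19.3% in the latter. Fasn, fatty acid synthase, gave 2456 in the double mutant, 1701 in the Matn3 mutant, 1439 in the XBP1 null and 1818 in the wild type. Lpin1, which makes diacylglycerol, gave 2650, 1640, 1159 and 1092 in that order of genotypes, with the double mutant highest. Of 8 preadipocyte genes and brakes on fat cell formation, 2 were higher in the XBP1 null than in the wild type: Pdgfra, a receptor of mesenchymal progenitors, at 2.40-fold and Gata2 at 2.26-fold. Of 12 adipokines and hormone receptors, 2 were higher and 1 lower in the XBP1 null than in the wild type, with Rarres2, the gene of chemerin, at 2.08-fold. Of 7 brown fat genes, 1 was higher and 1 lower in that comparison.

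**Figure D4:**
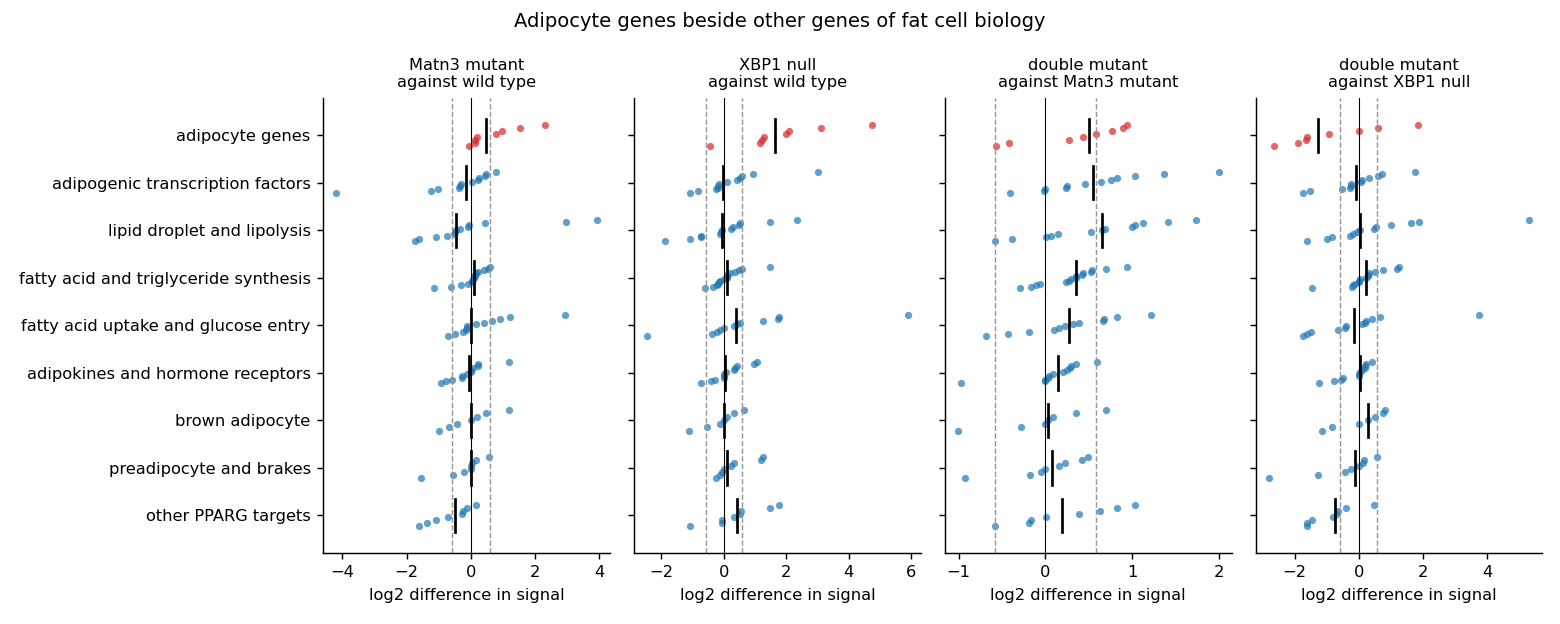
Log2 difference in signal (horizontal axis, own scale in each panel) of the adipocyte genes (red) and of 8 further lists of fat cell biology (blue), 1 point for each gene, in the 4 comparisons. Black bars are list medians and dashed lines 1.5-fold. In the XBP1 null against the wild type the median was 1.63 for the adipocyte genes and between -0.05 and 0.42 for the 8 further lists.

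The mean profile of the 8 genes, each centred on its own mean log2, was 0.17 in the double mutant, -0.19 in the Matn3 mutant, 0.96 in the XBP1 null and -0.94 in the wild type. By Euclidean distance over the 4 arrays, among 10977 other genes whose mean log2 was not under the median probe set, the nearest were Pqlc3 (distance 0.113), Pcdh19 (0.114), Lrrc27 (0.143), Mtcl1 (0.150) and Isg20 (0.154). Isg20, an exonuclease induced by interferon, gave 1767 in the double mutant, 1595 in the Matn3 mutant, 3179 in the XBP1 null and 879 in the wild type. A likeness over 4 arrays is easily met among so many genes and is given as a description.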

How the data were processed

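RNA of 4 samples, 1 for each genotype, was measured on Affymetrix mouse arrays, each from a pool of 3 extractions. The deposited value table holds 1 intensity for each of 45037 probe sets on a linear scale, and how the authors summarised and scaled it is not stated. The array medians are nearly equal, and no further scaling was applied. Probe sets were named from the platform annotation: 34945 name 1 gene, 932 several and 9160 none, and a gene was represented by its probe set with the highest mean log2. Signals under 1 were set to 1 before log2. Differences over 1.5-fold were counted, and an additive model was fitted with limma 3.58.1 in R 4.3.3, with an intensity trend and Benjamini-Hochberg adjustment over all probe sets, threshold 0.05, after a check on simulated data. Python 3.11.15, numpy 2.4.6, pandas 2.3.3 and matplotlib 3.10.9 were used.

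The adipocyte genes, the 8 pathway lists and the marker lists were chosen with earlier results of these data known. From each list, up to 4 genes with the largest difference in a comparison were eligible to be named, if their mean log2 was not under the median probe set, besides genes that define a cell type. Lep, Ucp1, Plin4, Xbp1, Eif2s3y, Uty and Kdm5d were named after their values were seen, as were Nr1h3, Klf15, Ebf2, Aqp7, Pck1 and Lipe. So were the values of list genes in comparisons where they were not among those 4. Alternatives were median centring, quantile normalisation, a floor at the 25th percentile and the median over probe sets. Another left out probe sets ending in _s_at, _x_at or _a_at. For limma there was also a filter on dim probe sets or no trend. The number of arrays limits the precision.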

Additional observations from a re-analysis of the deposited data

Results flagged for a closer look

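For 5 of the 8 measured genes, the effect of 1 genotype factor had opposite directions with and without the other factor. The rule asked only for opposite signs, at any size, and left out Cidec, which has signals under 1. The share of all genes that meet it was not counted, so the 5 are not a result about this list. The XBP1 null signal, the highest for each of the 5, enters 1 of the 2 differences compared. The Matn3 mutation came with a higher signal on the Xbp1 wild type background and a lower one on the XBP1 null background for Cd36, Fabp4, Adipoq and Lpl, on the brightest probe set of each. The double mutant minus both single mutants plus the wild type was -4.17 for Cd36, -2.69 for Fabp4, -1.81 for Adipoq and -1.04 for Lpl, on the log2 scale. For Lpl and Adipoq the Matn3 mutant was above the wild type by only 0.12 and 0.18, and for Adipoq this was -0.05 after quantile normalisation, so that the directions were no longer opposite. On the dimmer Fabp4 probe sets, 1424155_at and 1425809_at, the Matn3 mutation came with a lower signal on both backgrounds, by log2 differences of -1.02 and -0.73 without and -2.27 and -2.62 with the loss of XBP1. For Pparg the loss of XBP1 came with a higher signal without the Matn3 mutation (1.17) and a lower one with it (-0.42), and the same sum was -1.58. With 1 array for each genotype, none of these differences was tested.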

How the results depend on the processing

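The counts past 1.5-fold stayed within 1.5 times under all alternatives tried: 3 to 4 genes for the Matn3 mutant against the wild type, 6 to 7 for the XBP1 null against the wild type, 3 to 4 for the double mutant against the Matn3 mutant and 6 to 7 for the double mutant against the XBP1 null. The medians kept their signs, at 0.16 to 0.53, 1.28 to 1.63, 0.41 to 0.76 and -1.36 to -0.92. Fabp4 in the Matn3 mutant against the wild type changed sign, because the dimmer Fabp4 probe sets differ in direction. Its log2 difference was -0.00514 with the median over probe sets. It was -1.02 without probe sets ending in _s_at, _x_at or _a_at. The probe sets of the listed genes that this left out all end in _a_at. Fabp4 in the double mutant against the Matn3 mutant was -0.03 and -0.46 in the same alternatives. Quantile normalisation turned the sign of 2 small differences of the Matn3 mutant against the wild type, to -0.05 for Adipoq and 0.08 for Pparg. The only probe set of Pparg ends in _a_at, so Pparg was not measured in the alternative without such suffixes. That alternative left 7 genes, with 3 higher and 1 lower in the Matn3 mutant than in the wild type. For single genes, 9 further values moved by more than 1.5-fold from the value given and 145, some with the sign changes just named, moved by less. With only probe sets at or above the median intensity, limma called 13 probe sets for the Matn3 mutation and 0 for the XBP1 loss, and 0 of 5 adipocyte genes for either. No paired analysis was possible because each genotype has 1 array. Values near the floor, those of Cidec and Retn, have no reliable order.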
